A study of Mus musculus with 12 samples.

Results

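The genes of the Sonic hedgehog (Shh) pathway that receive and transmit the signal were followed in astrocytes of the developing mouse cerebellum. The 9 members were picked by symbol from a table of 24421 genes, and they comprised the receptors Ptch1 and Smo, the co-receptors Cdon and Boc, the ligand-binding antagonist Hhip, the cytoplasmic inhibitor Sufu, and the transcription factors Gli1, Gli2 and Gli3. Cells carrying green fluorescent protein (GFP) were sorted from dissociated cerebellum of Aldh1l1-GFP mice. Their RNA was sequenced in 3 libraries at each of postnatal day 1 (P1), P7, P14 and P28. All 12 libraries came from the same reporter genotype, the labels name no treatment, and age is the factor that sets the groups apart. The Aldh1l1 promoter that drives GFP marks astrocytes as a class, so Bergmann glia, velate astrocytes and white matter astrocytes were collected together. The labels do not say whether the 3 libraries of an age came from separate animals or litters, and p-values measure only the spread between these libraries.

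Shh is a secreted ligand that Purkinje cells release in the postnatal cerebellum, where it is best known as the mitogen of granule neuron precursors and also acts on Bergmann glia and other astrocytes. In cells without ligand, Ptch1 holds the membrane protein Smo inactive, Sufu retains the Gli proteins, and Gli3 and part of Gli2 are processed into repressors. Ligand bound to Ptch1 with a co-receptor releases Smo, the full-length Gli proteins then activate transcription, and Ptch1, Hhip and Gli1 are themselves direct targets, so that their transcripts are commonly read as a measure of pathway output.

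Each library held between 6399499 and 14733985 reads assigned to genes, and each value below is a normalised read count, that is, reads divided by the size factor of the library. The summed level of 10 astrocyte markers ranged from 70147 to 87000 at P1, from 31324 to 58557 at P7, from 151694 to 187023 at P14 and from 345807 to 403082 at P28, and none of the 10 was at 0 in any library. Transcripts of other cells were present too. Summed proliferation genes were highest at P7 (21915 to 27768) and lowest at P28 (794 to 1052), and the 6 oligodendrocyte markers were highest at P14 (306538 to 365995). Some libraries stood apart from the others of their age. P1 replicate 2 (3897) and P7 replicate 2 (10222) had the highest sum of endothelial and pericyte markers of their ages, and the sum of ependymal and choroid plexus markers was 1442 in P14 replicate 3 against 63865 and 109869 in the other libraries of P14. At P28 that sum was 104653 in replicate 1, 182011 in replicate 2 and 17845 in replicate 3. P7 replicate 2 had the highest such sum of P7 (128064 against 61462 and 48368) and the lowest astrocyte sum (31324 against 58557 and 54035). P1 replicate 2 had the highest sum of fibroblast and meninges markers of P1 (36085 against 20573 and 10367). Calls of the members that changed when one of these libraries was left out are given with and without it, and for the other pathway lists the counts of calls are given.

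All 9 members passed the filter on low values, which kept the 15464 genes whose value reached 10 in 3 or more libraries. Promoters are shown for the target genes Ptch1 and Hhip and for Sufu, whose time course ran opposite to that of Ptch1 from P1 to P14. Each window holds 250 bases before and 50 bases after a RefSeq transcript start on GRCm38.p6, read 5′ to 3′ on the strand of the gene, and capitals mark the GC box GGGCGG or its reverse complement CCGCCC. The Ptch1 window is chr13:63565686-63565985 on the minus strand, inside the annotated span of the gene. The Hhip window is chr8:80057959-80058258 on the minus strand and the Sufu window is chr19:46396646-46396945 on the plus strand.
Ptch1: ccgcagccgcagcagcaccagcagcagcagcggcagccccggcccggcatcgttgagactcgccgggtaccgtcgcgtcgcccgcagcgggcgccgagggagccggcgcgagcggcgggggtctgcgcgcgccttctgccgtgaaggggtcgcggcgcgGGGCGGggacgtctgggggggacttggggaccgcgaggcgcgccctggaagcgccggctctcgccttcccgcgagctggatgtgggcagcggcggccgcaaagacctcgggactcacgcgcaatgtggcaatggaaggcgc
Hhip: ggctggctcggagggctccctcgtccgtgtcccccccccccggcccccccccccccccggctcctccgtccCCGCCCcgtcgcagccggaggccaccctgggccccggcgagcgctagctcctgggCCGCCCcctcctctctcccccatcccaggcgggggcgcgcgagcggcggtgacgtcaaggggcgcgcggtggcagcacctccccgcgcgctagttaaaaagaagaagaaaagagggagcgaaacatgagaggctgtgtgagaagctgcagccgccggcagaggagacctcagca
Sufu: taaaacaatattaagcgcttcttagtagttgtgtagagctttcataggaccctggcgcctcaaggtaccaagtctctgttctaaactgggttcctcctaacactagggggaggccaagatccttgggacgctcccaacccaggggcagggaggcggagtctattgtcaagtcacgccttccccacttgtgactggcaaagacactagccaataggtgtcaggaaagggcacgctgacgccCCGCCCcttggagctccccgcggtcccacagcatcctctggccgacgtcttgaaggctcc
Promoters of 7 members were in the RefSeq table used. GC boxes were found in 5 of these 7 (Ptch1, Hhip, Gli2, Gli3 and Sufu), and in 35.7% of all 32851 promoters of the same length, searched on both strands. The Gli binding motif GACCACCCA, searched on both strands as well (TGGGTGGTC), was in 0 of the 7 and in 0.253% of all promoters, which says only that these letters are not in these windows.

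Expression of the pathway was compared between consecutive ages and between P1 and P28 to ask how the hedgehog transcripts change as cerebellar astrocytes mature. Ptch1 and Gli1 ended 3.02-fold and 3.75-fold higher at P28 than at P1, Sufu had a transient peak at P7, and Smo was highest at P1. With limma's moderated F test over the 4 ages, 7 of the 9 members differed at a Benjamini-Hochberg adjusted p under 0.05 (all but Cdon and Boc), against 43.8% of all genes tested. The F test of Gli2 (adjusted p = 0.0335) was lost in 11 of 22 alternatives, with adjusted p-values up to 0.0840 (without P14 replicate 2), and that of Gli3 (0.0217) was 0.0506 without P14 replicate 3. Boc passed it without P28 replicate 2 (0.00648). From P1 to P7, 4 of 9 members were called at an adjusted p under 0.05, against 7.70% of all genes tested. Sufu and Hhip were higher (3.47% of all genes were called higher) and Ptch1 and Smo lower (4.24% were called lower). From P7 to P14, 3 of 9 were called, against 20.9% of all genes, with Ptch1 and Gli1 higher (10.8% of all genes) and Sufu lower (10.0%). From P14 to P28, 3 of 9 were called, against 14.4% of all genes, and these 3, Ptch1, Gli2 and Gli3, were higher, as were 5.68% of all genes, whereas 8.76% were lower. Between P1 and P28, 4 of 9 were called, a share of 44.4% that lies near the 34.6% of all genes, with Ptch1, Gli1 and Hhip higher (14.6% of all genes) and Smo lower (20.0%). The median log2 fold change of the members was -0.68, 0.20 and 0.44 over the 3 consecutive steps, against 0.04, -0.09 and -0.12 for all genes tested. Consecutive comparisons share the libraries of the age between them, so they are not independent of each other.

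**Figure D1:**
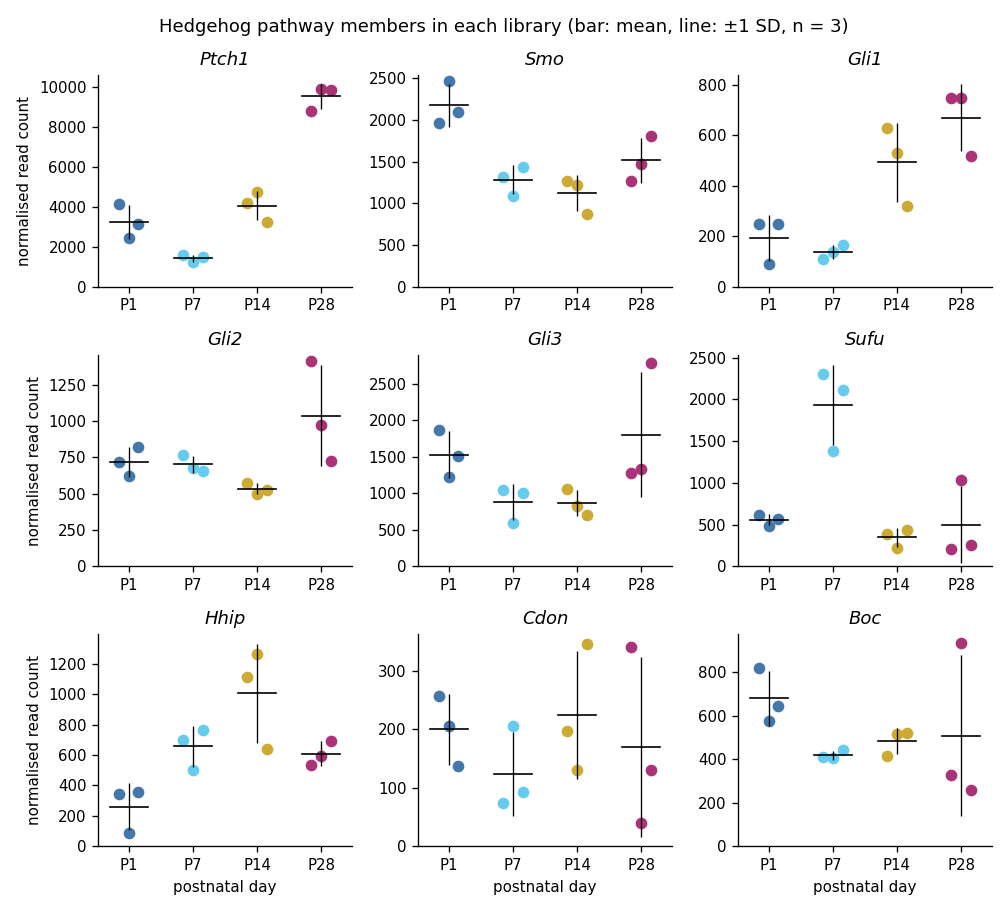
Normalised read count (vertical axes, from 0) of each of the 9 members in each of the 12 libraries by postnatal day, with the mean as a bar and 1 SD as a line. Ptch1 was lowest at P7 (1239 to 1574) and highest at P28 (8806 to 9939), while Sufu was highest at P7 (1385 to 2299).

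**Figure D2:**
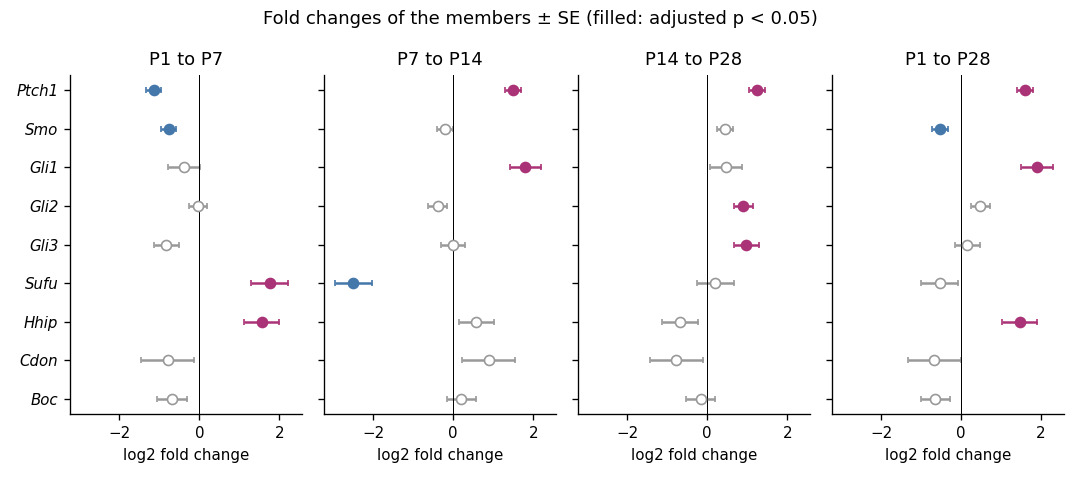
Log2 fold change (horizontal axes) of each member in the 4 comparisons, with the standard error as a line, filled purple for higher and filled blue for lower at a limma adjusted p under 0.05 and open grey otherwise. Ptch1 was called in all 4 comparisons, first lower (-1.14) and then higher (1.49 and 1.24), and Cdon and Boc in none.

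Ptch1, the receptor that holds Smo inactive and is also a target gene, is located at chr13:63508328-63573598 on the minus strand (GRCm38). It had normalised read counts of 4126, 2424 and 3149 at P1, 1574, 1239 and 1497 at P7, 4203, 4741 and 3270 at P14, and 8806, 9939 and 9880 at P28. Every library of P7 was below every library of the other ages, and every library of P28 was above them. The mean went from 3233 ± 854 (SD, n = 3) at P1 down to 1437 ± 175 at P7 and up to 4072 ± 745 at P14, and it reached 9542 ± 638 at P28. Ptch1 fell 2.21-fold from P1 to P7 (log2 fold change -1.14 ± 0.20 SE, limma adjusted p = 0.00238). It then rose 2.81-fold to P14 (1.49 ± 0.20, limma adjusted p = 8.51e-05) and a further 2.37-fold to P28 (1.24 ± 0.20, limma adjusted p = 0.00148). All 4 of its calls were kept under every one of the 25 alternative settings tried. The summed astrocyte markers followed a like course, though single markers did not all do so. Between P1 and P28, 8 of the 10 were called higher (14.6% of all genes) and 2 lower (20.0%). Those lower were Aldh1l1, whose promoter drives GFP (mean 5008 at P1 and 2921 at P28), and Fabp7 (15869 and 5215). The sum thus does not measure the astrocyte share alone. Per 1000 normalised counts of the summed astrocyte markers in the same library, Ptch1 stood at 27.9 to 47.6 at P1 and at 26.9 to 39.6 at P7. P14 gave 21.6 to 25.4 and P28 gave 24.5 to 27.4. These ratios overlapped between P1 and P7, all P14 libraries lay below both, and those of P28 overlapped with P7 and P14. The part of the astrocyte share in the change of Ptch1 was not tested, and in bulk RNA fewer cells of a type cannot be told apart from less RNA per cell.

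Smo, the membrane protein that carries the signal inward once Ptch1 is bound, is at chr6:29735503-29761365 on the plus strand. Its normalised read counts were 1968, 2461 and 2091 at P1, 1315, 1092 and 1433 at P7, 1269, 1218 and 873 at P14, and 1266, 1477 and 1804 at P28. All P1 libraries were above all others, and P7, P14 and P28 overlapped. Smo fell 1.70-fold from P1 to P7 (log2 fold change -0.77 ± 0.20 SE, limma adjusted p = 0.0273). This call was lost in 7 of the 25 alternatives, among them each of the 6 fits without one library of P1 or P7, in which the fold change lay between -0.85 and -0.66 and the adjusted p between 0.0512 and 0.128. Without P1 replicate 2 and P7 replicate 2 together it was -0.56 (adjusted p = 0.353). No later step of Smo passed the test, with log2 fold changes of -0.20 (adjusted p = 0.536) and 0.44 (adjusted p = 0.148). The lower level at P28 than at P1 had an adjusted p of 0.0499 (-0.53 ± 0.20), and 21 of the 25 alternatives did not call it. Among them were the fits with 1 library left out, except those without P14 replicate 3 or P28 replicate 3, in which the fold change lay between -0.60 and -0.41 and the adjusted p between 0.0519 and 0.153. Within a library, Ptch1 had 0.985 to 2.10 counts per Smo count at P1 and 1.04 to 1.20 at P7, then 3.31 to 3.89 at P14 and 5.48 to 6.96 at P28. Scaled to 1000 counts of the summed astrocyte markers, Smo overlapped between P1 (22.7 to 29.8) and P7 (22.5 to 34.8), and P14 (5.76 to 7.37) and P28 (3.66 to 4.48) lay below both.

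Gli1, an activator and target of the pathway, is located at chr10:127329882-127341974 on the minus strand, where its exons share 327 bases with Arhgap9 and Gm47200 on the opposite strand. Whether reads were counted by strand is not given in the sources used here, so reads from that stretch cannot be told apart. Gli1 had normalised read counts of 248, 89 and 247 at P1, 109, 136 and 165 at P7, 629, 530 and 320 at P14, and 750, 747 and 517 at P28. The libraries of P1 and P7 overlapped, as did those of P14 and P28, and every library of P14 and P28 was above every library of the earlier ages. Gli1 rose 3.50-fold from P7 to P14 (log2 fold change 1.81 ± 0.40 SE, limma adjusted p = 0.00479). The other steps did not pass the test, with -0.38 ± 0.40 from P1 to P7 (adjusted p = 0.729) and 0.48 ± 0.40 from P14 to P28 (adjusted p = 0.455). All calls of Gli1 were kept in the 25 alternatives. Per 1000 counts of summed astrocyte markers, Gli1 stood at 1.02 to 3.52 at P1 and 1.86 to 4.35 at P7, while P14 gave 2.11 to 3.65 and P28 gave 1.28 to 2.17. The ranges of all ages overlapped on this scale.

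Gli2, the main activator that acts first on a signal, had normalised read counts of 717, 619 and 824 at P1, 767, 678 and 659 at P7, 576, 501 and 523 at P14, and 1410, 972 and 725 at P28. It is encoded at chr1:118834132-119053619 on the minus strand. P14 was the lowest age with no overlap with any other, and P28 was the most variable. Gli2 rose 1.87-fold from P14 to P28 (log2 fold change 0.90 ± 0.23 SE, limma adjusted p = 0.0193). Without P14 replicate 2 or P14 replicate 3 the adjusted p was 0.0576 and 0.0583, at fold changes of 0.86 and 0.89. The difference from P1 to P28 did not pass the test (0.48, adjusted p = 0.123), except without P28 replicate 3 (0.71, adjusted p = 0.0209). Relative to the astrocyte markers, P14 (2.68 to 3.45 per 1000 counts) and P28 (1.80 to 4.08) overlapped and lay below P1 (7.12 to 11.7) and P7 (12.2 to 21.6).

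Gli3, the main repressor form of the family, lies at chr13:15463235-15730026 on the plus strand and shares 188 bases of exon with Gm6556 on the opposite strand. Its normalised read counts were 1862, 1221 and 1509 at P1, 1045, 593 and 998 at P7, 1056, 828 and 705 at P14, and 1280, 1334 and 2788 at P28. P28 replicate 3 was far above the other libraries of its age, and all libraries of P1 and P28 were above all of P7 and P14. Gli3 rose 1.98-fold from P14 to P28 (log2 fold change 0.98 ± 0.30 SE, limma adjusted p = 0.0442), and without P28 replicate 3 the value was 0.62 with an adjusted p of 0.135. In all, 11 of the 25 alternatives lost this call, among them the fits without P1 replicate 1 or 3, P7 replicate 1 or 3, or any one library of P14, with adjusted p-values from 0.0539 to 0.152. The change from P1 to P7 was -0.82 ± 0.30 (adjusted p = 0.132), although the libraries did not overlap, and without P28 replicate 3 in the fit its adjusted p was 0.0450, and 0.0419 with only P1 and P7 fitted. Per 1000 counts of the astrocyte markers, Gli3 at P14 (4.43 to 6.13) and P28 (3.68 to 6.92) overlapped, and both lay below P7 (17.8 to 18.9), whose range fell within that of P1 (highest value 21.5).

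Because Gli1 and Gli3 stand for the activating and repressing ends of the pathway, their ratio was taken within each library, where the size factor cancels. Gli1 had 13.3, 7.26 and 16.4 counts per 100 counts of Gli3 at P1, 10.4, 23.0 and 16.5 at P7, 59.6, 64.0 and 45.5 at P14, and 58.6, 56.0 and 18.5 at P28. All P14 libraries were above all P1 and P7 libraries, as were P28 replicates 1 and 2, while P28 replicate 3, the library with the high Gli3, fell within the P7 range. The log2 ratio averaged -3.09 ± 0.60 (SD, n = 3) at P1 and -2.65 ± 0.57 at P7, against -0.84 ± 0.26 at P14 and -1.35 ± 0.94 at P28, and the 4 ages differed (exact permutation test of the F statistic over all 369600 assignments, p = 0.0125). The p ranged from 0.00364 without P28 replicate 3 to 0.0333 without P14 replicate 2. These are ratios of transcripts and do not measure the processed Gli proteins.

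**Figure D3:**
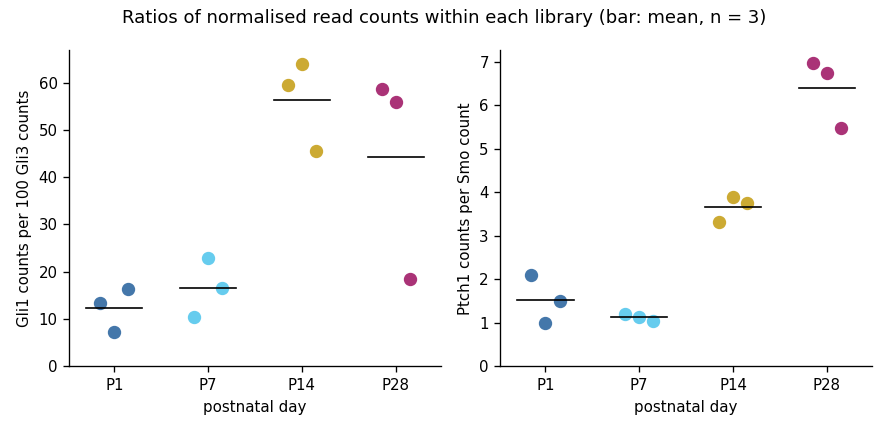
Gli1 counts per 100 Gli3 counts (left) and Ptch1 counts per Smo count (right) within each library by postnatal day, with the mean of the 3 libraries as a bar. In the left panel the P14 libraries sit at 45.5 to 64.0 and P28 replicate 3 at 18.5, and in the right panel the ratio reaches 5.48 to 6.96 at P28.

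Sufu, the cytoplasmic protein that retains the Gli factors, was the member with the largest single step. It is located at chr19:46396896-46488804 on the plus strand. The normalised read counts were 616, 491 and 574 at P1, 2299, 1385 and 2118 at P7, 395, 216 and 433 at P14, and 213, 1040 and 254 at P28. Each library of P7 was above every other library, and at P28 replicate 2 stood well above the other libraries of that age. Sufu rose 3.38-fold from P1 to P7 (log2 fold change 1.76 ± 0.47 SE, limma adjusted p = 0.0333) and fell 5.66-fold from P7 to P14 (-2.50 ± 0.47, limma adjusted p = 0.00155). The fall was called in all 25 alternatives. The rise kept its direction in all of them and was not called in 7, which were the fits without any one library of P1 or P7 (1.62 to 1.98, adjusted p from 0.0503 to 0.120) and the fit without both P1 replicate 2 and P7 replicate 2 (1.89, adjusted p = 0.154). From P1 to P28 the difference was -0.54 (adjusted p = 0.395), and -1.26 (adjusted p = 0.00724) without P28 replicate 2. Per 1000 counts of the summed astrocyte markers, Sufu stood at 5.64 to 8.18 at P1 and 39.2 to 44.2 at P7. P14 (1.15 to 2.86) and P28 (0.617 to 2.87) overlapped on this scale and lay below both, and P7 was again the highest age. Markers of dividing and of neuronal progenitor cells were highest at P7 as well. All 12 proliferation genes were detected there in every library, and they summed to 9896 to 16945 at P1 and 1395 to 2102 at P14. The 8 markers of GABAergic progenitors and interneurons summed to 4267 to 8637 at P7, against 1090 to 3716 at P1, 446 to 686 at P14 and 407 to 1137 at P28, with Ptf1a and Neurog1 at 0 in all P14 libraries. The 8 granule neuron precursor markers summed to 5478 to 7054, 13023 to 13962, 6720 to 9146 and 6965 to 7330 at the 4 ages, with Atoh1 at 0 in all libraries of P14 and P28. The part of these cells in the P7 level of Sufu was not tested.

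Hhip, a membrane-bound protein that captures hedgehog ligands and is induced by them, lies at chr8:79965851-80058006 on the minus strand, with 175 bases of exon shared with Gm27820 on the opposite strand. It had normalised read counts of 341, 85 and 356 at P1, 700, 504 and 765 at P7, 1112, 1264 and 641 at P14, and 533, 596 and 695 at P28. All P1 libraries were below all others, with P1 replicate 2 lowest, and the later ages overlapped. Hhip rose 2.95-fold from P1 to P7 (log2 fold change 1.56 ± 0.44 SE, limma adjusted p = 0.0446) and was 2.76-fold higher at P28 than at P1 (1.47 ± 0.44, limma adjusted p = 0.0196). Without P1 replicate 2, the library with the most endothelial transcripts of its age, the values were 0.89 (adjusted p = 0.133) and 0.79 (adjusted p = 0.0614). In all, 11 of the 25 alternatives lost the rise to P7 and 4 lost the difference at P28. Those that lost the rise to P7 included edgeR on the recovered reads (1.34, adjusted p = 0.0735) and the fits without P7 replicates 1, 2 or 3 (1.51, 1.74 and 1.44, adjusted p = 0.133, 0.0724 and 0.161), without P14 replicates 1 or 2 (adjusted p = 0.0650 and 0.0618) and without P28 replicate 1 (adjusted p = 0.0519). Relative to the astrocyte markers, Hhip stood at 0.977 to 5.07 per 1000 counts at P1 and at a median of 14.2 and a highest value of 16.1 at P7, then at 4.22 to 6.76 at P14 and 1.54 to 1.72 at P28. On this scale P7 was above every other age, and the P28 libraries lay within the range of P1.

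Cdon and Boc, related cell-surface proteins that bind ligand together with Ptch1, did not pass limma's test on the 12 libraries in any comparison, with unadjusted p-values of 0.0817 or more. Cdon, at chr9:35421128-35507652 on the plus strand, had normalised read counts of 257, 206 and 137 at P1, 73, 207 and 92 at P7, 197, 131 and 346 at P14, and 341, 40 and 130 at P28. Its libraries overlapped between all ages, and the standard error of 0.66 on the log2 scale was the widest of the members. The largest change of Cdon, 0.89 from P7 to P14, had an unadjusted limma p of 0.199. Changes of that size could thus be neither shown nor excluded. Boc, at chr16:44485049-44558897 on the minus strand, had 818, 574 and 646 at P1, 409, 403 and 443 at P7, 413, 514 and 521 at P14, and 329, 933 and 260 at P28. Every P1 library of Boc was above every P7 and P14 library, and P28 replicate 2 was above all of them. The log2 fold change of Boc was -0.68 ± 0.36 from P1 to P7 (limma adjusted p = 0.348) and -0.64 from P1 to P28 (adjusted p = 0.189). Without P28 replicate 2, the latter was -1.20 (adjusted p = 0.00180), and with library totals it was -1.08 (adjusted p = 0.0292). With only P1 and P7 fitted, the former had an adjusted p of 0.0256. Sufu and Boc were thus both highest within P28 in replicate 2, where Cdon was lowest.

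Counted over all members, the libraries of the 2 ages did not overlap for 6 of 9 from P1 to P7 (38.3% of all genes tested), 4 of 9 from P7 to P14 (46.1%), 3 of 9 from P14 to P28 (26.1%) and 4 of 9 between P1 and P28 (41.9%). The first of these counts took in Gli3 and Boc, both lower at P7, and the next took in Gli2, lower at P14, none of which passed the test there.

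Levels of different genes were set side by side as normalised read counts per kilobase of exon. At P1, Smo was highest at 387 ± 45.6, followed by Ptch1 at 228 ± 60.2, Gli3 at 160 ± 33.5 and Boc at 153 ± 28.2 (SD, n = 3), and the last 3 lay within their spread. At P7 the order began with Sufu at 251 ± 63.0 and Smo at 228 ± 30.9, which did not differ beyond their spread. Gli2, Ptch1, Boc and Gli3 followed there between 91.6 and 102. At P14 Ptch1 led with 287 ± 52.5 ahead of Smo with 199 ± 38.3, and the levels of Hhip, Boc, Gli1, Gli3 and Gli2 lay between 77.7 and 111. At P28 Ptch1 stood at 673 ± 45.0, above Smo at 270 ± 48.3 and Gli3 at 188 ± 89.2. Cdon was last at every age, between 16.1 and 29.2 per kilobase.

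**Figure D4:**
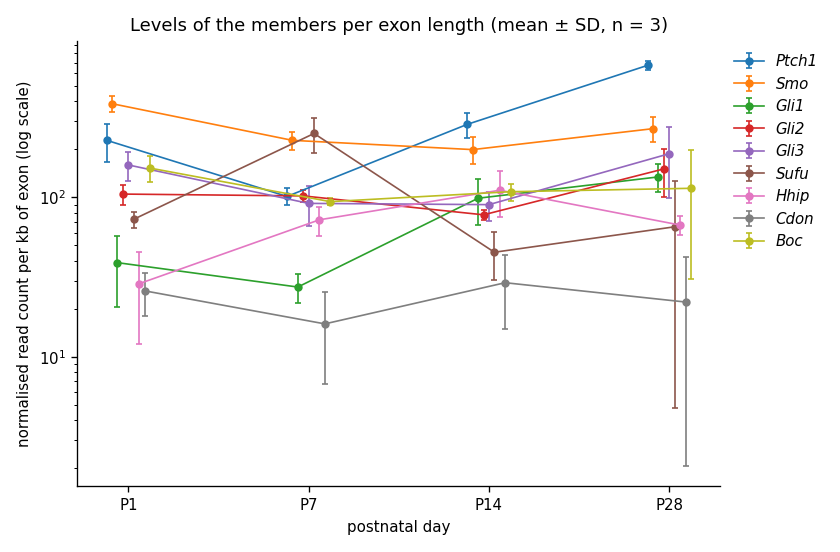
Normalised read count per kilobase of exon (log scale) of the 9 members by postnatal day, as the mean with 1 SD (n = 3), the ages joined by lines. Ptch1 went from 101 at P7 to 673 at P28, Sufu was highest of the members at P7 (251), and Cdon was lowest at every age.

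Among 79 further genes of the pathway, 77 passed the filter, and the step from P1 to P7 called 2 of them as higher and 7 as lower. The same counts were 11 and 13 for P7 to P14, 10 and 5 for P14 to P28, and 15 and 22 for P1 against P28. The lower counts from P1 to P7 and for P1 against P28 include Shh, which passed the filter only through its P1 libraries. The share called was 11.7%, 31.2%, 19.5% and 48.1% in turn, beside 7.70%, 20.9%, 14.4% and 34.6% of all genes. They are given by role below, with genes that code for ligands before the receptors, the intracellular steps and the targets. From P1 to P7, 3.47% of all genes were called higher and 4.24% lower, beside the counts by role. These shares were 10.8% and 10.0% for P7 to P14, 5.68% and 8.76% for P14 to P28, and 14.6% and 20.0% for P1 against P28.

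Of 7 genes for ligands and their release, 5 passed the filter on low values, and Ihh and Dhh were too low. The ligand Shh had normalised read counts of 14.3 to 24.0 at P1, 0 in all P7 libraries, 0 to 1.09 at P14 and 0 in all P28 libraries. Relative to P1, the level at P7 was at least 6.80-fold lower and that at P28 at least 4.90-fold lower, taking 3 reads per library as the limit that a count of 0 allows. Shh passed the filter on low values only through its P1 libraries, and without any one of them it was not tested, so that its values are a description with no test. Scube2, a secreted protein that helps release lipid-bearing Shh, stood at 97.9 to 514 at P1 and 185 to 530 at P7, then at 3.17 to 8.47 at P14 and 0 to 1.46 at P28. Its fall from P7 to P14 had a log2 fold change of -5.72 ± 0.79 SE (limma adjusted p = 1.30e-04). Disp2, a relative of the ligand exporter Disp1, rose from P7 to P14 (1.41 ± 0.38, limma adjusted p = 0.0169), and no ligand gene was called higher in that step without P7 replicate 1, P7 replicate 2 or P14 replicate 3. Hhat, which attaches palmitate to Shh, was lower at P28 (0 to 9.44) than at P1 (15.9 to 32.0), with a limma adjusted p of 0.0241. In that comparison 3 of the 5 genes were lower, Shh among them, whose values are a description only. The count was 2 with edgeR, with DESeq2 and without P1 replicate 3, P28 replicate 1 or P28 replicate 3. It was 1 of 4 without P1 replicate 1 or P1 replicate 2.

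Of 6 other receptors and co-receptors, the step from P1 to P7 called 0 as higher and 3 as lower, that from P7 to P14 called 2 and 1, and that from P14 to P28 called 1 and 1. In the step to P7, edgeR, DESeq2 and limma without adjustment gave 0 as higher too, and the 3 lower calls became 1 without P1 replicate 1, P1 replicate 2 or P7 replicate 2 and 0 without both P1 replicate 2 and P7 replicate 2. With library totals, with the replicate block and without P7 replicate 1, P7 replicate 3, P14 replicate 2 or P14 replicate 3, 2 were lower. Gas1, a membrane-anchored co-receptor that works beside Cdon and Boc, had 469 to 762 normalised counts at P1 and 191 to 336 at P7, then 790 to 1058 at P14 and 1740 to 1955 at P28. Gas1 changed in the same directions as Ptch1 at each step, with log2 fold changes of -1.15, 1.76 and 1.04 (SE 0.24, limma adjusted p = 0.00868, 1.32e-04 and 0.0126). The glypican Gpc3, which binds Shh and lowers its signal, fell at each of the 3 steps, from 716 to 1410 at P1 to 35.1 to 84.9 at P28. It was the receptor gene called lower in each later step, and there was no such call from P7 to P14 without P7 replicate 2, P7 replicate 3 or P14 replicate 2, nor from P14 to P28 without P14 replicate 1. The 1 higher call from P14 to P28 was lost without P14 replicate 3. Gpc5, a glypican that promotes the response to Shh, rose from P7 to P14 (2.02 ± 0.35, limma adjusted p = 9.55e-04). Lrp2, an endocytic receptor of Shh, fell from 434 to 925 at P1 to 51.0 to 96.3 at P7 (-3.10 ± 0.68, limma adjusted p = 0.0110).

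Of 26 regulators that act on Smo or the Gli proteins, the step from P1 to P7 called 0 as higher and 1 as lower, with 2 and 4 for P7 to P14, 4 and 0 for P14 to P28, and 5 and 6 for P1 against P28. At an unadjusted p under 0.05, 1 was higher from P1 to P7 and 2 were lower from P14 to P28. Counts under the alternative settings cover 25 of these genes, without Grk2, which was not called in any of the 4 comparisons of the main fit. Scaling to library totals changed the adjusted counts to 2 and 6 for P7 to P14, 2 and 3 for P14 to P28, and 2 and 12 for P1 against P28. The 4 lower from P7 to P14 became 1 without P7 replicate 1 or P7 replicate 3 and 2 without P14 replicate 1 or P14 replicate 3, and the 6 lower at P28 than at P1 became 3 without P1 replicate 3 and 4 without P1 replicate 1 or 2. The 4 higher from P14 to P28 became 2 without P1 replicate 1, P7 replicate 3, any one P14 library, or P28 replicate 1 or 3. The lower call from P1 to P7 was lost without P1 replicate 1 or 2 or any one P7 library. Gsk3b, a kinase that marks Gli proteins for processing, fell from P7 to P14 (log2 fold change -0.75 ± 0.15 SE, limma adjusted p = 0.00246). In the same step, the cullins Cul1 and Cul3, scaffolds of the ubiquitin ligases that act on Gli proteins, fell by 0.50 and 0.51 on the log2 scale (limma adjusted p = 0.0320 and 0.0184). Prkar1a, the regulatory subunit of protein kinase A, was higher at P28 than at P1 (1.00 ± 0.17, limma adjusted p = 4.10e-04). Of 25 genes of ciliary transport, on which vertebrate hedgehog signalling depends, 0 passed limma's adjusted test from P1 to P7 (4 at an unadjusted p under 0.05, 0 with edgeR and 1 with DESeq2). The later steps called 1 as higher and 1 as lower each, and P1 against P28 called 2 and 1. With library totals, P1 against P28 gave 1 and 7 and P7 to P14 gave 0 and 2. The 1 lower at P28 than at P1 became 5 without P28 replicate 1, 3 without P28 replicate 3, and 2 without P28 replicate 2, P14 replicate 1 or P14 replicate 2. From P7 to P14 none was called without P7 replicate 1 or P14 replicate 3, and the higher call was lost without P7 replicate 2. The lower call from P14 to P28 was lost without any one library of P1, P7 or P14 and without P28 replicate 3. Among these, Ift22 and Arl3 were higher and Dync2h1 was lower at P28 than at P1, with log2 fold changes of 1.56, 1.07 and -0.85.

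Of 12 genes known as transcriptional targets in other tissues, 10 were lower and 1 was higher at P28 than at P1. The median log2 fold change of the list was -2.98 against -0.24 for all genes. The 10 became 9 without any one library of P1 or P28, and 8 without P1 replicate 2 and P7 replicate 2 together. Of the 10, 1 had values under 10 in every library of P1 and P28. From P7 to P14, the step in which Ptch1 and Gli1 rose, 6 targets fell and 1, Bcl2, rose. The 6 became 5 without P7 replicate 1, P7 replicate 3 or P14 replicate 3. With a value of at least 10 required in every library, 7 targets were tested, and 2 rose and 2 fell in this step. The call of Bcl2 was lost with library totals and without P7 replicate 2 or P14 replicate 1. Ccnd2, a D-type cyclin, had 4759 to 6482 normalised counts at P7 and 221 to 552 at P14 (-4.08 ± 0.39, limma adjusted p = 5.54e-06). Sfrp1, an antagonist of Wnt ligands, fell in that step from 1416 to 2497 at P7 to 257 to 614 at P14 (-2.36 ± 0.57, limma adjusted p = 0.00863). The survival factor Bcl2 fell from P1 to P7 (-2.20 ± 0.21, limma adjusted p = 3.25e-05), and Igf2 was lower at P28 than at P1 (-1.18 ± 0.36, limma adjusted p = 0.0194). The others that fell from P7 to P14, named after their values were seen, were Mycn, Foxm1, Cdc25b and Fst. Ccnd2, Mycn, Foxm1 and Cdc25b are known to act in the cell cycle, and the proliferation genes fell over the same step, 12 of 12. Ccnd1, a cyclin of the same target list, was not called in that step (-0.15, limma adjusted p = 0.813). The part of dividing cells in the levels of these targets was not tested.

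Of 4 genes that Shh is known to maintain in Bergmann glia, all 4 rose from P7 to P14 and again from P14 to P28. The later count became 2 without P14 replicate 3, and 3 with library totals and without P14 replicate 1, P28 replicate 2 or P28 replicate 3. In these steps 10.8% and 5.68% of all genes were called higher. Of the 10 astrocyte markers, 7 were called higher in each of them, so the rise was not particular to this list. Gria1, an AMPA receptor subunit, had 326 to 1054 normalised counts at P1 and 1540 to 2625 at P7, then 10902 to 13659 at P14 and 33812 to 44628 at P28. Gria4, a partner subunit, rose at each step too (1.39, 2.17 and 1.30 ± 0.22, limma adjusted p = 0.00158, 1.09e-05 and 0.00237). The glutamate transporter Slc1a3 and the potassium channel Kcnj10 had log2 fold changes of -0.70 (adjusted p = 0.0927) and -0.72 (adjusted p = 0.0242) from P1 to P7, followed by 2.54 and 2.42 from P7 to P14 (limma adjusted p = 4.22e-06 and 8.26e-07). The fall of Kcnj10 was lost without P1 replicate 1, P1 replicate 3 or P7 replicate 2. Slc1a3 is also one of the astrocyte markers summed above.

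**Figure D5:**
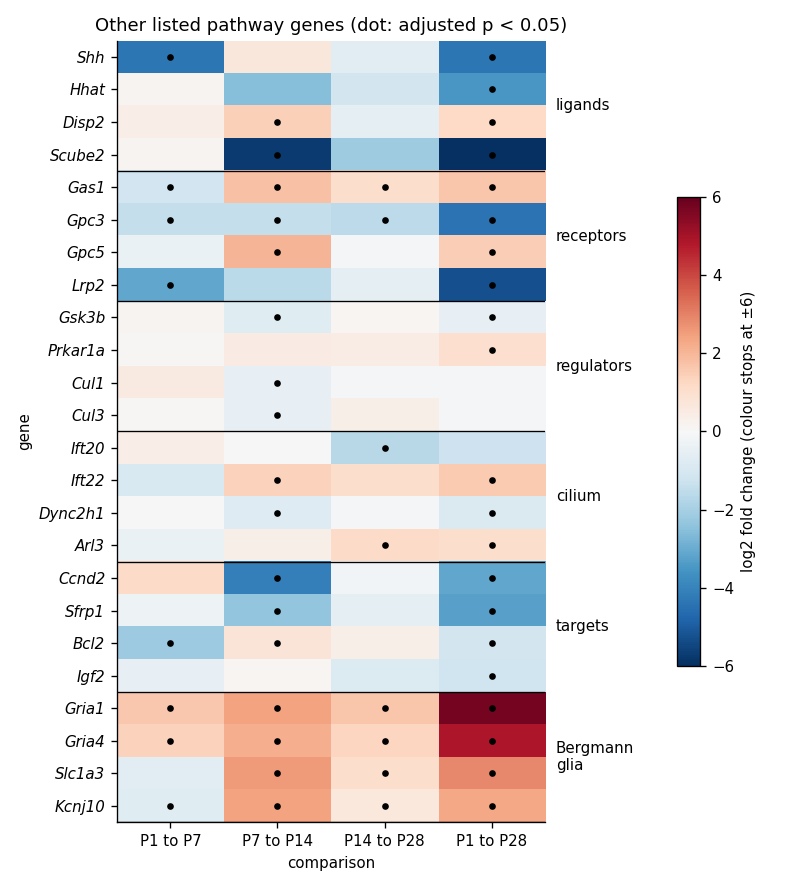
Log2 fold change (colour, red for higher and blue for lower at the later age) of the named genes of each further list in the 4 comparisons, with a dot where the limma adjusted p was under 0.05. The 4 Bergmann glia genes are red in both later steps, whereas Ccnd2 (-4.08) and Sfrp1 (-2.36) are blue from P7 to P14. Shh passed the filter on low values only through its P1 libraries, so its dots are not read as tests.

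The genes most like each member over the 12 libraries were found by Pearson's r of log2 values among 10211 genes with a mean of at least 100 normalised counts, as a description only, since libraries of one age share their age and depth. Ptch1 was followed most closely by 4833439L19Rik (r = 0.979), the junctional adhesion gene Jam2 (0.976) and Nacc2 (0.976). For Gli1 these were Kazn (0.951), Rmnd5b (0.950) and Cmya5 (0.946), and for Smo they were Ccdc3 (0.935), Zfp36l1 (0.931) and the extracellular matrix gene Tnc (0.919). Gli3 was nearest to Galc (0.925), Sox2 (0.889) and Bmpr1a (0.884), and Gli2 to Stard7 (0.934), Zfp106 (0.901) and Irak1 (0.900). Sufu was nearest to Tbpl1 (0.960), Ap3s1 (0.943) and Josd1 (0.941). The remaining members had Gm2694 (0.922), Sv2b (0.890) and Slc24a2 (0.886) for Hhip, Rit1 (0.864), Gusb (0.863) and Mvk (0.862) for Cdon, and Pom121 (0.945), Nek4 (0.937) and Hs6st1 (0.937) for Boc. Among the members themselves, the highest r was 0.865 between Ptch1 and Gli1, and the lowest was -0.69 between Ptch1 and Sufu.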

How the data were processed

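RNA of GFP-sorted cerebellar cells was measured in 12 libraries, 3 per age, grouped by the sample labels. The column names in the table carry P28 whatever the age, so columns were matched through the names in the labels. According to the paper and the submitters' processing notes, reads were aligned to mm10 with STAR (version 2.5.0a), counted on UCSC transcripts and normalized with DESeq2 (version 1.30.1 in the notes). The deposited values are a signal, namely counts that the authors divided by 1 size factor per library, and undoing the division gave whole reads (within 0.01) for 100% of the values. The use of strand and the treatment of shared reads are not given in the sources used here.

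Values were tested as log2(value + 1) in limma (version 3.58.1, run under R 4.3.3), with 1 mean per age, all 12 libraries in 1 fit and Benjamini-Hochberg adjustment over 15464 genes. Fold changes on this scale understate those of low genes. The ratio of Gli1 to Gli3 was tested by exact permutation, two-sided by construction of F. Alternatives were pseudocounts of 0.1 and 10, filters, library totals, TMM, edgeR (version 4.0.16) and DESeq2 (version 1.42.0) on the recovered reads, fewer ages in the fit, the replicate number as a block, other calls, and each library left out. Leaving out P1 replicate 2 and P7 replicate 2 together was added after seeing the data. The script was tested on simulated data. All 12 pairs of libraries of one age differed by more than sampling noise.

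Named genes were all members, up to 4 genes with the highest mean among those called in each further list, and the 3 genes most like each member. The members and lists were chosen with earlier results of these data known. Gene positions came from GENCODE M21 on GRCm38, and promoters from RefSeq on GRCm38.p6. Grk2 was found under its older symbol Adrbk1 and was left out of the list counts under alternative settings, and Septin4 was not matched. The values of 1 further listed gene are not reported here.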

Additional observations from a re-analysis of the deposited data

How the results depend on the processing

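Of the counts of called members, that from P7 to P14 stayed at 3 with any library left out. With each library left out, 1 to 5 members were called from P1 to P7, 1 to 3 from P14 to P28, 2 to 5 between P1 and P28, and 5 to 7 over the 4 ages, and the exact p of the Gli1 to Gli3 ratio ranged from 0.00364 to 0.0333. Scaling by library totals gave 1 member from P14 to P28, and fitting only the 2 ages compared gave 1 there and 2 between P1 and P28. Without P1 replicate 2 and P7 replicate 2 together, 1 was called from P1 to P7 and 2 between P1 and P28. The cause was not tested, other than that these fits hold fewer libraries.

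The replicate numbers gave little sign of pairing. The deviations of the 18 same-numbered pairs correlated between -0.03 and 0.14 (median 0.03) and 1 of them was over 0.1. Between P1 and P7 the same-numbered pairs had 0.041, 0.139 and 0.066, and the pairs of unlike number -0.105 to 0.054. Correlations this low do not show that the libraries were unpaired. With the number as a block, 4, 3, 3 and 3 members were called in the 4 comparisons and 7 over the 4 ages, and the p of the ratio was 0.0174.

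Directions turned for members that had not passed the test. With library totals, which moved the median of all genes to 0.10, -0.34, -0.35 and -0.67 in the 4 comparisons, this held for Gli2 from P1 to P7 (0.027), Boc from P7 to P14 (-0.057), Sufu from P14 to P28 (-0.032) and Gli3 between P1 and P28 (-0.28). TMM turned Gli3 from P7 to P14 (0.027), and edgeR and DESeq2 turned Boc from P14 to P28 (0.067 and 0.073). With single libraries left out, the log2 fold change spanned -0.14 to 0.070 for Gli2 from P1 to P7, -0.26 to 0.15 for Gli3 from P7 to P14, and -0.21 to 0.35 for Gli3 between P1 and P28. From P14 to P28 it spanned -0.51 to 0.63 for Sufu, -0.71 to 0.21 for Boc and -1.51 to 0.018 for Cdon, and for Cdon between P1 and P28 -1.41 to 0.12. Of the values of single members under the alternatives, 992 kept their direction and side of the threshold, 77 no longer passed it, 9 newly passed it and 20 turned. With library-total scaling, Gli2 and Gli3 from P14 to P28 and Hhip at P28 against P1 were no longer called (limma adjusted p = 0.082, 0.0970 and 0.0744). Intervals on reads cover counting error only.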
